A study of Mus musculus with 21 samples.

Results

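The transcription factors through which the circadian clock passes timing on to other genes, or represses itself, are described here in AGRP and POMC neurons of fed and food-deprived mice. The 8 genes were chosen by symbol from the 35266 genes of the count and TPM (transcripts scaled to gene length and library size) files: the REV-ERB receptors *Nr1d1* and *Nr1d2*, the DEC repressors *Bhlhe40* and *Bhlhe41*, the PAR bZIP factors *Dbp*, *Tef* and *Hlf*, and *Nfil3*. All 8 passed the filter on low counts, which kept 16513 genes for testing.

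The study asked how food deprivation changes the transcriptome of these neurons, which are both found in the arcuate nucleus of the hypothalamus and act in opposite directions on feeding. AGRP neurons were collected from male NPY-hrGFP mice and POMC neurons from male Pomc-GFP mice, both on C57BL/6J, at postnatal days 46 to 56. Each mouse spent the last 24 h alone in a fresh cage, fed mice with food at will and food-deprived (FD) mice with water only. Fluorescent cells were picked by hand from digested slices, 44 to 214 cells a library, and their RNA was amplified before sequencing, which gave 5 AGRP fed, 6 AGRP FD, 5 POMC fed and 5 POMC FD libraries, each from the brain of a separate mouse. The reporter marks the cells by *Npy* or *Pomc* promoter activity, so the AGRP samples hold the NPY cells that carried hrGFP. All mice were sampled in the middle of the light phase, so a level at that time can be read here but a phase or an amplitude cannot. Counts assigned to genes ranged from 9822298 to 37663979 per library. The labelled cell types carried their markers, with a summed *Agrp* and *Npy* level of 12064 to 68921 TPM in the AGRP libraries and 5.45 to 225.9 TPM in the POMC libraries, and *Pomc* at 7162 to 23063 TPM in the POMC libraries and 7.35 to 69.7 TPM in the AGRP libraries. The summed level of 16 astrocyte, oligodendrocyte, microglial and endothelial markers ranged from 19.3 to 62.2 TPM over all libraries. In such bulk samples fewer expressing cells and less RNA per cell cannot be told apart.

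In the molecular clock, CLOCK and BMAL1 drive transcription from E-boxes, and their PER and CRY products repress them. REV-ERB receptors bind ROR elements and repress *Arntl*, the gene for BMAL1, while the DEC proteins compete for E-boxes. The PAR bZIP proteins activate genes through D-boxes, and NFIL3 represses through the same sites, so that the balance of the activators and NFIL3 sets D-box output.

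Promoter windows from RefSeq (GRCm38.p6, 250 bases before to 50 bases after the transcript start) were present for 7 of the 8 genes, in 8 windows since *Tef* has a pair of start sites. *Bhlhe40* had no window. Both strands were searched for the E-box CACGTG, the D-box TTACGTAA or TTATGTAA, the ROR element TAGGTCA or TGGGTCA, and the cAMP element TGACGTCA. The stretches before the start that hold a match are shown, and the capitals mark the match. The E-box, D-box and ROR element are the clock elements described above, and the cAMP element is not among them. The E-box occurred in 3 of the 8 windows and in 7.15% of all 32851 windows. The ROR element occurred in 6.45% of all windows, the cAMP element in 1.79% and the D-box in 1.06%.

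Bhlhe41, chr6:145865538-145865633, minus strand, E-box: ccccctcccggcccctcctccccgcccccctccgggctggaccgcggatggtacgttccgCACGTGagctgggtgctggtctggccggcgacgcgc

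Tef, first start, chr15:81802486-81802581, plus strand, E-box: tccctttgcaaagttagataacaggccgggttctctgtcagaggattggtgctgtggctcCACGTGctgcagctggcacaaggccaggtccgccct

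Tef, second start, chr15:81811216-81811311, plus strand, E-box: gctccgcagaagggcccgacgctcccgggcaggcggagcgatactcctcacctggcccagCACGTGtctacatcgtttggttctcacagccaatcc

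Hlf, chr11:90390918-90390986, minus strand, cAMP element: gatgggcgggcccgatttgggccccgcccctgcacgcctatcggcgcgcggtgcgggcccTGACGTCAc

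Nfil3, chr13:52981040-52981111, minus strand, ROR element on the opposite strand: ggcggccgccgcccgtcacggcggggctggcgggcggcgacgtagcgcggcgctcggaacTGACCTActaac

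The window of *Nr1d1*, *Nr1d2* and *Dbp* held none of these letters. Each window covers 300 bases, and elements outside it or with other letters were not searched. The paper counts these genes among the known targets of CLOCK and BMAL1. A match is a description of the sequence and does not show that a factor binds there.

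Food deprivation lowered 6 of the 8 genes in AGRP neurons and raised 1, *Nfil3*. The losses ran from 1.95-fold for *Nr1d2* to 30.8-fold for *Bhlhe40*, and *Nfil3* rose 6.20-fold. Among all 16513 genes tested in this comparison, 4.43% were lower and 5.87% higher at a q-value (a p-value adjusted over all genes tested, edgeR quasi-likelihood test) under 0.05. The median log2(fold-change) of the 8 genes was -2.21, against -0.02 over all genes. In POMC neurons the 8 genes did not follow the same course. Only *Nr1d2* passed the test, and it rose (0.182% of all genes were higher and 0.194% lower). The median log2(fold-change) there was 0.63, against -0.02 over all genes. The volume of spike-in RNA added differed between libraries, from 1 to 10 µl. Scaled by spike-in counts with no allowance for that volume, 0 of the 8 passed in either cell type, beside 1 of all genes in AGRP neurons (0.00606%) and 0 in POMC neurons. Scaled by spike-in counts per volume and sorted cell, an alternative chosen after seeing the data, 2 of the 8 passed in AGRP neurons, *Bhlhe40* (-5.08, q = 2.24e-05) and *Hlf* (-3.23, q = 0.019), beside 0.587% of all genes, and 0 passed in POMC neurons. Under both scalings all 8 kept their direction in AGRP neurons. In POMC neurons the first of them moved the median of all genes to -1.08, *Nr1d2* stood at 0.22, 1.31 above that median, and 6 of the other genes changed sign. The spike-in volumes were not balanced between the POMC groups. Of the FD libraries 2 received 10 µl and 3 received 1 µl. Of the fed libraries 3 received 1 µl, 2 a volume set by cell number (2.04 and 2.16 µl), and none 10 µl. Scaled per volume and sorted cell, the POMC median of all genes was -1.11, beside -1.08 with no allowance for volume. The part of this imbalance in the shift was not tested.

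**Figure D1:**
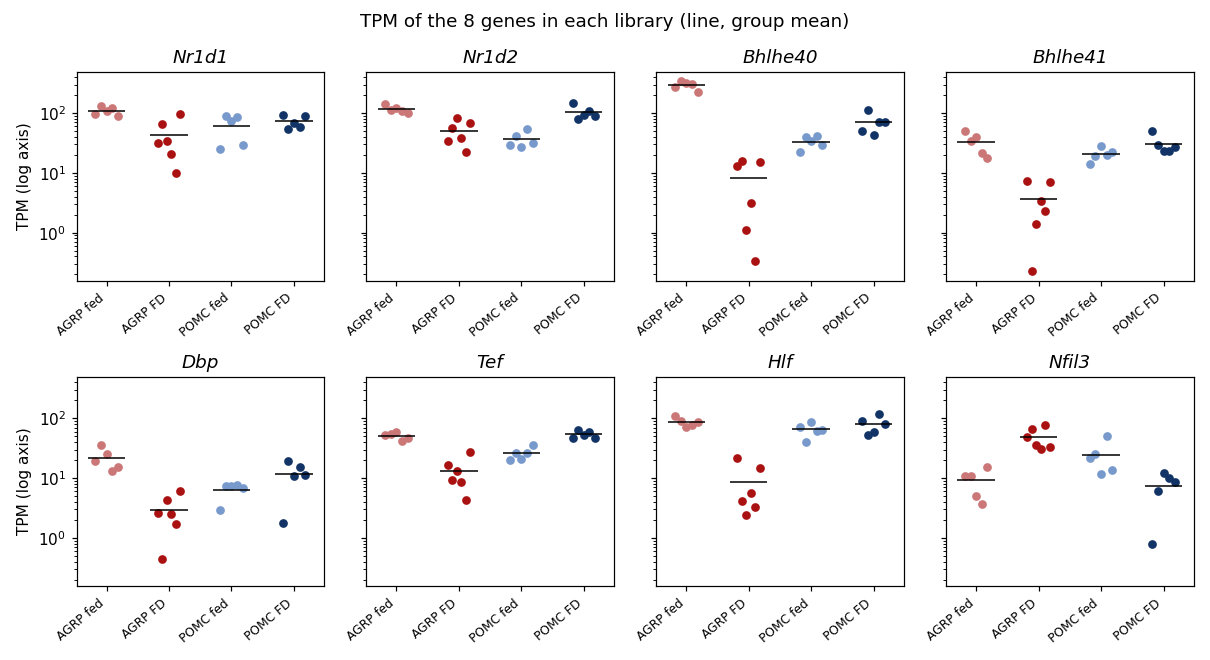
TPM (log axis) of each gene in each of the 21 libraries, by group, with a line at the group mean. In AGRP neurons the FD points lie below the fed points without overlap for 6 genes and above them for Nfil3, while Nr1d1 overlaps.

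The REV-ERB receptors are nuclear receptors that repress *Arntl* and other genes with ROR elements. *Nr1d2* stood at 144, 111, 122, 109.5 and 101 TPM in the fed AGRP libraries. In the 6 FD libraries it ranged from 22.4 to 82.1 TPM with a median of 47.4 TPM, below every fed library. The log2(fold-change) was -0.96 ± 0.25 (SE, q = 0.0112). *Nr1d2* behaved oppositely in POMC neurons, where the fed libraries held 29.6, 40.9, 26.6, 53.5 and 31.5 TPM and the FD libraries 145, 78.8, 94.0, 109.6 and 90.6 TPM. No FD library lay below a fed one, and the log2(fold-change) was 1.39 ± 0.27 (SE, q = 0.00788). *Nr1d1* in AGRP neurons was 95.3, 133, 108, 124 and 87.8 TPM when fed and 9.98 to 97.3 TPM, median 32.9 TPM, when food-deprived. Its ranges overlapped through 1 FD library at 97.3 TPM, and its log2(fold-change) of -1.12 ± 0.38 (SE, q = 0.0606) did not pass the test. It passed with limma-voom (q = 0.00288) and DESeq2 (q = 0.0306), and without FD replicate 6, the library at 97.3 TPM, the log2(fold-change) was -1.49 (q = 0.00975). Without FD replicate 2 it was -1.32 (q = 0.0351). These were the only 2 of the 21 fits leaving out a library in which *Nr1d1* passed (highest q = 0.139). It passed under 5 of 9 other settings of the fit. In POMC neurons *Nr1d1* ranged from 25.1 to 89.7 TPM fed and from 55.0 to 94.4 TPM FD, which overlapped, and the 95% interval of its log2(fold-change) ran from -0.64 to 0.99 (q = 0.921).

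The DEC proteins are basic helix-loop-helix repressors that bind E-boxes. *Bhlhe40* (chr6:108660628-108666925) was the highest of the 8 genes in fed AGRP neurons, at 271, 339, 315, 306 and 225 TPM. It fell to between 0.333 and 16.1 TPM in the FD libraries, median 8.06 TPM, with counts of 7 to 323 against 3833 to 5970. All 6 FD libraries lay far below all 5 fed libraries, and the log2(fold-change) was -4.95 ± 0.54 (SE, q = 2.35e-07). *Bhlhe41* (chr6:145858242-145865558) stood at 49.4, 33.8, 39.5, 21.9 and 17.4 TPM fed and at 0.226 to 7.42 TPM FD, median 2.83 TPM. Its groups did not overlap, and the log2(fold-change) was -2.96 ± 0.46 (SE, q = 5.13e-05). In POMC neurons *Bhlhe40* was 22.3 to 41.3 TPM fed and 42.7 to 112 TPM FD, without overlap, but the log2(fold-change) of 0.95 ± 0.50 (SE, q = 0.46) did not pass the test. *Bhlhe41* there was 13.9 to 27.9 TPM fed and 23.5 to 51.0 TPM FD, which overlapped (log2(fold-change) 0.50, 95% interval -0.43 to 1.43).

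The PAR bZIP factors are the activators of D-box genes. *Hlf* was the most abundant of them in fed AGRP neurons, at 110.1, 89.2, 70.4, 77.8 and 86.9 TPM, and it ranged from 2.43 to 21.98 TPM, median 4.88 TPM, in the FD libraries. The groups did not overlap, and *Hlf* fell by 3.14 on the log2 scale (SE 0.37, q = 8.90e-07). *Tef* was 53.4, 54.5, 58.3, 41.4 and 47.0 TPM fed and 4.36 to 27.5 TPM FD, median 11.1 TPM. It too did not overlap, at a log2(fold-change) of -1.74 ± 0.29 (SE, q = 0.000105). *Dbp* was lower throughout, at 19.5, 36.0, 25.6, 13.0 and 15.4 TPM fed and 0.44 to 6.16 TPM FD, with FD counts of 5 to 59. It showed no overlap and a log2(fold-change) of -2.69 ± 0.64 (SE, q = 0.00577). In POMC neurons *Tef* was 20.1 to 36.3 TPM fed and 46.5 to 63.5 TPM FD, again without overlap, and its log2(fold-change) was 0.94 ± 0.30 (SE, q = 0.151). *Dbp* (log2(fold-change) 0.76, 95% interval -0.56 to 2.09) and *Hlf* (0.18, 95% interval -0.56 to 0.93) overlapped between POMC groups.

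*Nfil3*, the repressor at D-boxes, went the other way in AGRP neurons. It stood at 11.04, 10.7, 5.04, 3.67 and 15.5 TPM in the fed libraries and at 30.3 to 76.0 TPM, median 42.3 TPM, in the FD libraries. Every FD library was above every fed library, with a log2(fold-change) of 2.63 ± 0.54 (SE, q = 0.00133). In POMC neurons the fed libraries held 21.7, 24.9, 11.8, 51.0 and 13.5 TPM and the FD libraries 0.781, 6.07, 12.3, 9.86 and 8.48 TPM. These overlapped at 11.8 and 12.3 TPM, and the log2(fold-change) of -1.84 ± 0.54 (SE, q = 0.112) did not pass the test, though it did with DESeq2 (q = 0.0251). DESeq2 called 382 of all genes in this comparison, against 62 in the main fit.

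**Figure D2:**
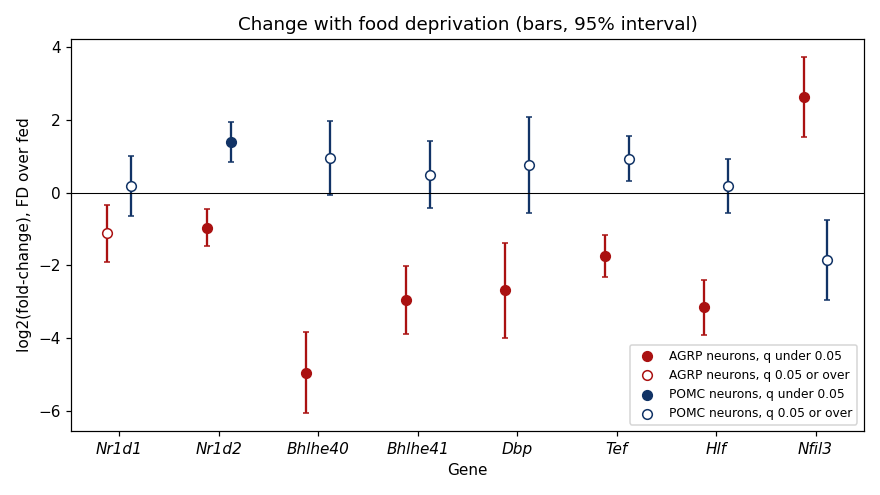
log2(fold-change) of FD over fed for each gene, with its 95% interval, in AGRP (red) and POMC (blue) neurons; filled points have a q-value under 0.05. The AGRP points lie below 0 for 7 genes and at 2.63 for Nfil3, and the POMC points lie between -1.84 and 1.39.

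In AGRP neurons 7 of the 8 genes had FD and fed TPM ranges that stood apart, against 7.97% of all genes tested, and in POMC neurons 3 of the 8, against 2.39%. The direct test of the difference between cell types, the interaction of cell type and deprivation, passed for 7 of the 8 genes. With the POMC log2(fold-change) subtracted from that in AGRP neurons, 6 were negative and *Nfil3* was positive (2.63% and 4.08% of all genes). In the main fit these 6 fell in AGRP neurons and were above 0 in POMC neurons, from 0.18 (*Hlf*) to 1.39 (*Nr1d2*). *Nfil3* had the reverse signs, 2.63 in AGRP and -1.84 in POMC neurons. Of these POMC values only that of *Nr1d2* passed the test. The difference in log2(fold-change) was -5.89 ± 0.73 for *Bhlhe40* (SE, q = 3.66e-06). It was 4.48 ± 0.76 for *Nfil3* (SE, q = 0.000284), and -2.35 ± 0.37 for *Nr1d2* (SE, q = 0.00011). *Dbp*, at -3.45 ± 0.91 (SE, q = 0.0184), lost the call without AGRP fed replicate 2 (-3.15, q = 0.0501) and with the spike-in set as a block (-3.004, q = 0.0543), an alternative chosen after seeing the data. For *Nr1d1* the difference was -1.29 (95% interval -2.43 to -0.16, q = 0.177), which passed with limma-voom (-1.83, q = 0.0233).

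By age alone the AGRP libraries were split here into a younger cohort (postnatal days 46 and 47, 2 fed and 3 FD) and an older one (days 51 and 55, 3 fed and 3 FD). The younger libraries all had a spike-in volume set by cell number, and the older ones 1 or 10 µl. Age and spike-in scheme therefore cannot be told apart in AGRP neurons. All 8 genes kept the direction of the pooled comparison in both cohorts. In the older cohort 6 of the 8 passed the test (4.7% of all genes did), *Dbp* falling out at a log2(fold-change) of -2.74 (q = 0.0789). In the younger cohort 3 passed (1.64% of all genes), *Bhlhe40* (-4.48, q = 0.00158), *Bhlhe41* (-2.60, q = 0.031) and *Hlf* (-2.98, q = 0.00323). In POMC neurons, among the 3 fed and 3 FD libraries that received the 1 µl volume of spike-in RNA, *Nr1d2* had a log2(fold-change) of 1.50 (q = 0.0813).

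Between cell types in the fed state, 2 of the 8 genes differed, both higher in AGRP neurons (3.33% of all genes were higher there and 4.24% lower). They were *Bhlhe40*, with a log2(fold-change) of 2.95 ± 0.53 (SE, q = 0.000258), and *Nr1d2*, with 1.49 ± 0.27 (SE, q = 0.000241). In FD mice, 6 were lower and *Nfil3* was higher in AGRP neurons (9.27% and 9.28% of all genes). *Hlf* had a log2(fold-change) of -3.10 ± 0.37 (SE, q = 2.01e-07) and *Nfil3* of 2.88 ± 0.54 (SE, q = 0.000231). *Dbp*, at -1.83 ± 0.63 (SE, q = 0.0391), had the highest q-value of the 7. Its call held under 3 of 9 other settings of the fit, and was lost with limma-voom (q = 0.11), with no count filter (q = 0.073), with the contrast's groups alone (q = 0.133) and when age cohort entered the model (-1.48, q = 0.175), all POMC libraries being of the older cohort. It was also lost in 9 of the 21 fits that left out a library: AGRP fed replicate 2, AGRP FD replicates 1, 2, 4 and 5, and POMC FD replicates 2 to 5 (-2.14 to -1.58 over all 21 fits, highest q = 0.107). *Nr1d2*, at -0.86 ± 0.25 (SE, q = 0.0145), lost its call without POMC FD replicate 1 (-0.70, q = 0.0644). With spike-in scaling it turned to 0.31, but the median of all genes was then 0.99, and *Nr1d2* stood at -0.68 relative to that median. These comparisons share libraries with those above.

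The order of levels per length changed with deprivation. In fed AGRP neurons the mean levels were led by *Bhlhe40* at 291 ± 44.2 TPM (SD, n = 5), apart from the next, *Nr1d2* at 117 ± 16.5 TPM and *Nr1d1* at 109.6 ± 18.8 TPM, which overlapped. *Nfil3* was the lowest at 9.19 ± 4.84 TPM, overlapping *Dbp*. In FD AGRP neurons *Nr1d2* at 50.4 ± 22.6 TPM, *Nfil3* at 48.2 ± 18.7 TPM and *Nr1d1* at 43.2 ± 32.4 TPM (SD, n = 6) led and overlapped, and *Bhlhe40* stood at 8.17 ± 7.40 TPM. In POMC neurons *Hlf* led when fed, at 65.2 ± 17.4 TPM, and *Nr1d2* when food-deprived, at 104 ± 25.7 TPM, each overlapping its next neighbour.

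Ratios within a library do not depend on the scaling between libraries. The summed level of *Dbp*, *Tef* and *Hlf* over that of *Nfil3*, activators over repressor, had a mean log2 ratio of 4.30 ± 0.77 (SD, n = 5) in fed AGRP neurons and -1.12 ± 1.31 (SD, n = 6) in FD AGRP neurons. The fed libraries ranged from 3.26 to 5.17 and the FD libraries from -3.02 to 0.54, with 1 of 6 above 0. In POMC neurons it was 2.18 ± 0.98 fed and 4.72 ± 1.60 FD (SD, n = 5 each), and the lowest FD library, 3.34, was above the highest fed one, 3.30. The ratios were given as a description, with no test.

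**Figure D3:**
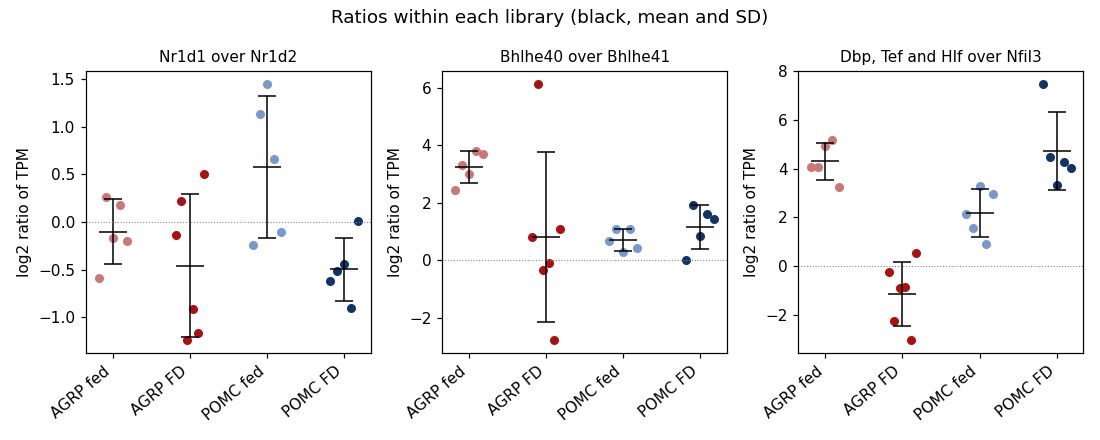
log2 ratio of TPM in each library for Nr1d1 over Nr1d2, Bhlhe40 over Bhlhe41, and the sum of Dbp, Tef and Hlf over Nfil3; black marks are the group mean and SD. The third ratio lies between 3.26 and 5.17 in fed AGRP neurons and between -3.02 and 0.54 in FD AGRP neurons.

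The make-up of the PAR bZIP sum also differed between the groups. *Hlf* made up 54.5% ± 6.46 (SD, n = 5) of the summed TPM in fed AGRP neurons and 32.6% ± 13.2 (SD, n = 6) in FD ones, and *Tef* 32.0% ± 3.35 and 54.5% ± 10.6. The ranges of the *Tef* share, 29.2% to 37.8% fed and 40.2% to 66.4% FD, did not overlap. *Bhlhe40* exceeded *Bhlhe41* in all 5 fed AGRP libraries, at a mean log2 ratio of 3.26 ± 0.55 (SD), and in 3 of the 6 FD libraries. That ratio rested on counts as low as 7 and 9 in FD libraries. The *Nr1d1* to *Nr1d2* ratio overlapped between fed and FD libraries in both cell types.

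Other genes of the clock were read from lists of 13 core loop genes, 9 genes of clock protein turnover and 10 co-repressors and E-box cofactors. Of the core loop genes, 12 were tested, and in AGRP neurons 3 were lower and 2 higher. *Per3*, a period gene with clock-regulated expression, went from 46.7 ± 21.3 TPM (SD, n = 5) to 3.99 ± 2.88 TPM (SD, n = 6), a log2(fold-change) of -3.31 ± 0.35 (SE, q = 1.13e-07). *Ciart*, a repressor of CLOCK and BMAL1, had -2.55 ± 0.74 (SE, q = 0.0244) and *Arntl2*, a BMAL1 paralogue, -1.37 ± 0.41 (SE, q = 0.0301). *Rorb*, a nuclear receptor that activates through ROR elements, rose by 1.58 on the log2 scale (SE 0.34, q = 0.00209), and *Per1*, a period gene that also responds to neuronal activity, by 0.71 (SE 0.22, q = 0.0386). *Clock* and *Arntl* did not pass the test. The median over the 12 genes was 0.06, against -0.02 over all genes, so the list as a whole held changes in both directions. None of the 12 passed in POMC neurons, and *Per3* and *Rorb* passed the interaction test at -4.37 ± 0.49 (SE, q = 8.60e-07) and 1.698 ± 0.48 (SE, q = 0.0273).

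**Figure D4:**
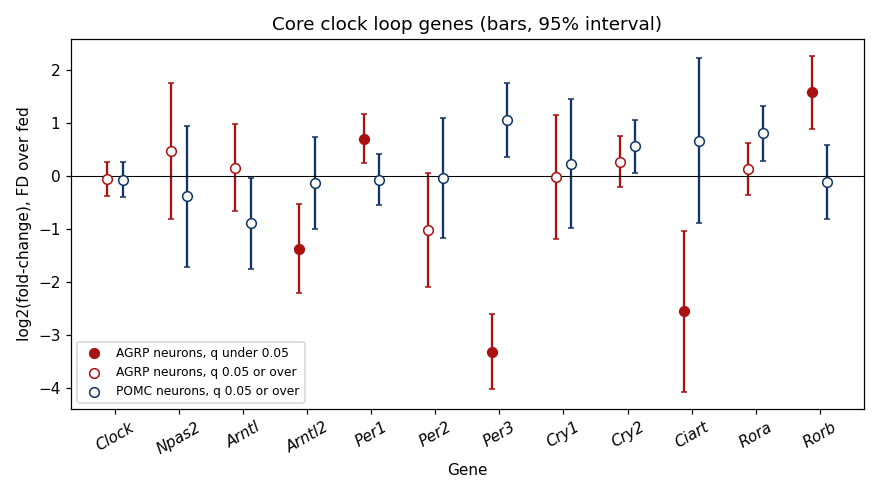
log2(fold-change) of FD over fed, with its 95% interval, for the 12 tested core loop genes in AGRP (red) and POMC (blue) neurons; filled points have a q-value under 0.05. Per3 at -3.31 and Ciart at -2.55 lie lowest in AGRP neurons, Rorb highest at 1.58, and no POMC point is filled.

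None of the 9 turnover genes passed in either cell type. Of the 10 co-repressors and cofactors, *Tbl1x*, a subunit of the NCoR co-repressor complex, rose in AGRP neurons by 1.25 on the log2 scale (SE 0.18, q = 1.73e-05) and *Sfpq*, an RNA-binding protein that also acts in PER complexes, by 1.05 (SE 0.21, q = 0.000958). Both also passed the interaction test, and none of the 10 passed in POMC neurons.

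The genes most like each of the 8 over the 21 libraries were found by Pearson's r of log2(normalized CPM + 1), with a mean level above 20 CPM in at least 1 group, among 8200 genes. All points share the 4 groups and the library preparation, so r is a description. *Bhlhe41* and *Hlf* were near each other (r = 0.92), and *Efnb3*, an ephrin, was the nearest to both (r = 0.93 and 0.95). *Tef* was followed by *Crebrf* (0.91), *Per3* (0.90) and *Lmo3* (0.87), and *Bhlhe40* by *Mlh3* (0.90), *Vwa5b1* (0.90) and *Add3* (0.89). *Nfil3* was followed by *Spry4* (0.91), a negative regulator of growth factor signalling, then *Prkcsh* (0.87) and *Selk* (0.85). *Nr1d1* had *Mapk14* (0.81), *Bhlhe40* (0.76) and *Arid5b* (0.76), *Nr1d2* had *Hrh3* (0.81), *Elavl2* (0.74) and *Rps6ka5* (0.73), and *Dbp* had *Dnajc28* (0.85), *Cd274* (0.80) and *Zbed5* (0.79). *Gabra3* (0.92) was the remaining neighbour of *Hlf*, and *Tmem191c* (0.93) of *Bhlhe41*.

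Counting did not use strand, so reads in exon bases shared with a gene on the other strand cannot be assigned by strand. Reads that fitted more than 1 gene were set aside as ambiguous, outside the gene counts. They were 1.01% to 1.58% of the total. Shared exon bases were measured in GENCODE M21, not in the GENCODE release that the paper used for counting, so they may differ from those behind the counts. *Nr1d1* overlaps *Thra* over 263 exon bases, and *Thra* had a log2(fold-change) of -0.53 (q = 0.0353) in AGRP neurons. *Dbp* overlaps *Sphk2* over 539 exon bases, and *Sphk2* had 0.54 (q = 0.358), opposite in sign to *Dbp*. *Bhlhe40* overlaps the antisense gene *0610040F04Rik* over 118 exon bases, which averaged 2.98 TPM fed and 0.0223 TPM FD, and *Tef* overlaps *Gm17597* over 193 exon bases, at 5.62 and 0.122 TPM. Both are low beside the genes they overlap and moved in the same direction. *Car11*, 405 bases from *Dbp*, had -0.11 (q = 0.923). Of the 16 non-neuronal markers, 10 were tested and 1, the astrocyte gene *Aldh1l1*, passed in AGRP neurons. It averaged 0.0258 TPM fed and 1.69 TPM FD, beside a summed non-neuronal level of 41.1 to 53.3 TPM fed and 27.0 to 45.3 TPM FD. Its part in the results was not tested.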

How the data were processed

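The 8 genes and the lists were chosen with earlier results of these data known. RNA-seq libraries were made by the authors from amplified RNA of manually sorted neurons, with spike-in RNA. The submitters' processing notes name CASAVA, cutadapt 1.7.1, Bowtie2 2.1.0, STAR 2.4.0i, HTSeq 0.6.1p1 and build mm10, and the authors deposited raw counts per gene, from uniquely mapped reads counted without strand, and TPM values that they derived from the gene counts by way of FPKM. The 92 spike-in rows and 5 summary rows were kept out of library sizes and tests. Reads assigned to no gene were 25.6% to 55.3% of the total.

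Counts were tested with edgeR 4.0.16 (R 4.3.3) quasi-likelihood fits after TMM normalization on genes above 1 CPM in at least 3 libraries, in 1 model of 4 groups and 21 libraries, with Benjamini-Hochberg q-values and a threshold of 0.05. Alternatives used limma 3.58.1, DESeq2 1.42.0, other scalings, covariates and omitted libraries. Named genes were all 8 members, list genes with a q-value under 0.05 in either cell type or the interaction, the 3 genes most like each member, and genes overlapping or within 1000 bases of one. 0 per-sample columns were left unused. Each library came from 1 mouse, so p-values measure the spread between mice together with that of sorting, amplification and sequencing. No pair of libraries within a group agreed within sampling noise (the lowest mean chi-square per gene was 41.6). Protein sequences were not used here. A count of 3 in a library is 0.0797 to 0.305 CPM, and this covers counting error only.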

Additional observations from a re-analysis of the deposited data

Results flagged for a closer look

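7 of the 8 genes responded differently to deprivation in AGRP and POMC neurons by the interaction test, as AGRP change less POMC change on the log2 scale: *Nr1d2* -2.35, *Bhlhe40* -5.89, *Bhlhe41* -3.45, *Dbp* -3.45, *Tef* -2.68, *Hlf* -3.33 and *Nfil3* 4.48. A single library stood apart from its group in 2 of 32 gene and group combinations, where chance gives about 1 in 20. *Bhlhe41* was at 51.0 TPM in POMC FD replicate 1, with the nearest other library at 29.3 TPM. *Dbp* was at 2.90 TPM in POMC fed replicate 1, with the nearest at 6.76 TPM. Without POMC FD replicate 1 or POMC fed replicate 1 the POMC comparison still passed for *Nr1d2* among the 8 genes.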

How the results depend on the processing

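Leaving out each library in turn gave 7 to 8 of the 8 genes past the threshold in AGRP neurons, 1 in POMC neurons, 6 to 7 in the interaction, 2 to 3 between cell types when fed and 6 to 7 when food-deprived. DESeq2 called 2 genes in POMC neurons, beside 382 of all genes, against 62 of all genes in the main fit. Scaling by spike-in (ERCC) counts called 0 genes in each of the 5 comparisons. It carries the added volume, 1 to 10 µl a library, and spike-in counts ran from 39097 to 8514459. The median of all genes became -0.18 in AGRP neurons, -1.08 in POMC neurons, 0.91 in the interaction, 0.10 between fed cell types and 0.99 between FD ones. It turned POMC changes to -0.99 (*Nr1d1*), -0.043 (*Bhlhe40*), -0.58 (*Bhlhe41*), -0.12 (*Dbp*), -0.084 (*Tef*) and -1.18 (*Hlf*), and FD cell type differences to 0.11 (*Nr1d1*) and 0.31 (*Nr1d2*). Spike-in scaling per volume and cell, chosen after seeing the data, called 2, 0, 2, 1 and 1 genes in these comparisons. POMC changes were then -0.999 (*Nr1d1*), -0.19 (*Bhlhe40*), -0.55 (*Bhlhe41*), -0.31 (*Dbp*), -0.18 (*Tef*) and -1.02 (*Hlf*), each above the median of all genes, -1.11. FD differences were 0.40 (*Nr1d1*) and 0.52 (*Nr1d2*), both below the median of all genes, 1.10. Fits within the younger cohort (3 genes) and the 1 µl spike-in set (0 genes, *Hlf* at -0.071), also chosen after seeing the data, hold fewer libraries. Of all genes these fits called 270 and 28. *Nr1d1* in POMC neurons ranged from -0.012 to 0.42 when a library was left out. With Spearman's rho, 7 of the 24 most similar genes were still among the nearest. With the replicate block, 8 genes passed in AGRP neurons and 1 in POMC neurons, *Nr1d1* at -1.64 in AGRP neurons and -2.04 in the interaction, while *Dbp* between FD cell types had q = 0.0633. Same-numbered libraries did not deviate together (r from -0.19 to 0.12), so the numbers do not pair them. Protein comparisons were not run.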
